A study of Komagataella phaffii CBS 7435 with 16 samples.

Results

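The first transcript response of the methylotrophic yeast Komagataella phaffii to low oxygen was described from 8 of the 16 RNA-seq libraries of a chemostat study. The 4 libraries labelled 0% oxygen at 0.4 volume changes (VC) were compared with the 4 labelled 30% oxygen at 5 VC, over every feature of the deposited abundance tables. All libraries came from the wild-type strain CBS7435, grown as glucose-limited chemostat cultures at 25 °C and pH 5.5 with a dilution rate of 0.075 per h. A volume change is the replacement of the working volume of the reactor by fresh medium. The protocol describes the points in other terms: the 0.4 VC samples would match its point 5 h after a switch to 8% oxygen in the inlet air, and the 30% samples its point after 66 h at 21% oxygen in the inlet air. The groups carry their labelled names here, shortened to 0% oxygen at 0.4 VC and 30% oxygen. In the protocol the 30% point comes before the switch, so lower oxygen and later sampling cannot be told apart. The labels call the samples biological replicates without saying which vessel each came from.

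In yeasts, oxygen is the last electron acceptor of respiration. It is also a substrate for making sterols, heme and unsaturated fatty acids. In a glucose-limited chemostat, the feed of fresh medium sets the growth rate at steady state. Komagataella phaffii respires most of its sugar when oxygen is plentiful and makes by-products such as ethanol when it is short.

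The tables pair no identifier with a gene name. The reference table, of strain GS115, held 5040 genes and matched 0 of the identifiers. Features are therefore described by direction, size of change, level, length and place, and only 4 identifiers are printed. Identifiers ending in t (5378 of 5564) have lengths that are multiples of 3 in nearly all cases and are called coding features, and the 186 ending in r are called r features. Of the 5564, 5452 had enough reads to be tested. The 8 libraries held between 32534100 and 40699800 estimated counts each. Replicates of a group had log CPM (counts scaled to a common library size) values correlated at 0.982 to 0.995. Replicate 1 at 30% oxygen stood apart: its average fragment, read from the difference between length and effective length, was 205 nt, against 232 to 250 nt in the other 7 libraries. Its chi-square per degree of freedom against the other 3 libraries of its group was 157 to 176, against 41.7 to 91.7 among those 3. At 0% oxygen, replicate 2 differed most from its group, at 78.4 to 96.7, against 19.1 to 46.9 for pairs without it. The counts of calls, the named features, the shares of changed neighbours and the library measures are also given without replicate 1 at 30% oxygen.

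The early response was broad and mostly small. Of 5452 features tested, 2606 (47.8%) were called at an adjusted p under 0.05 in edgeR's quasi-likelihood test, 1296 (23.8%) higher and 1310 (24.0%) lower at 0% oxygen. A call with a change of at least 2-fold was made for 603 features (11.1%), 245 rising (4.49%) and 358 falling (6.57%). At 4-fold the counts were 59 (1.08%) and 114 (2.09%). When the test itself asked for a change beyond 2-fold (edgeR's glmTreat), 369 features passed (6.77%), of which 145 rose (2.66%) and 224 fell (4.11%). The quartiles of all log2 fold changes were -0.31 and 0.30, the 5th and 95th percentiles were -1.21 and 0.96, and the 1st and 99th were -3.00 and 2.06. The fall thus had the longer tail. Without replicate 1 at 30% oxygen, 1153 features rose and 1293 fell, 236 and 384 of them at least 2-fold.

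Replicates varied little beside the larger changes. Over the 5362 features that averaged 50 counts or more, the median coefficient of variation of normalised CPM was 8.11% at 0% oxygen and 9.74% at 30% oxygen. All 4 values of one group lay above all 4 of the other for 2634 features, or 48.3% of those tested, where 47.8% were called. Groups overlapped for only 15 of the 603 features called with at least a 2-fold change. The balance of rises and falls differed between tests that used different scales and normalisation. On the deposited TPM values (counts scaled by effective length and library), tested with limma on log2(TPM + 1), 747 features rose and 1630 fell. The median log2 change of all features was -0.13 there, against 0.01 in the count test. The count test used TMM factors, which rescale library sizes, of 0.936 to 0.977 at 0% oxygen and 1.01 to 1.12 at 30% oxygen. The TPM test used none, and the part of these factors in the shift was not tested. No feature called in both tests had opposite signs, a count of 0 of 2051.

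**Figure D1:**
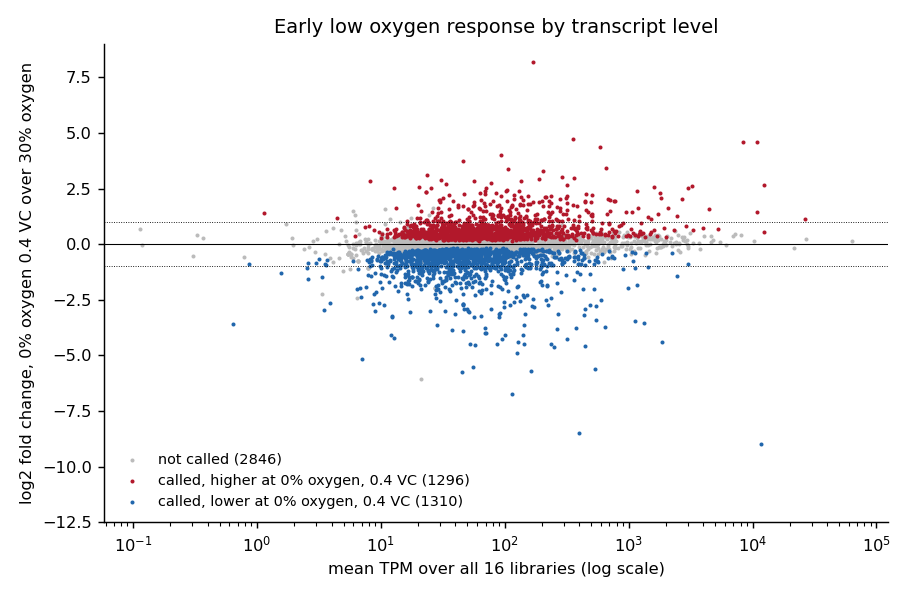
Each point is 1 of 5452 tested features, with its mean TPM over all 16 libraries on a log x axis and its log2 fold change (0% oxygen at 0.4 VC over 30% oxygen) on the y axis. Red points were called higher (1296), blue points lower (1310) and grey points were not called; dotted lines mark 2-fold, and the falling side reaches further from 0 than the rising side.

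By rule, the pair of called nuclear coding features that gained most TPM and the pair that lost most are named. All 4 were very short, with coding lengths of 123 to 216 nt. Their effective lengths, which divide the counts to give TPM, were only 18.2 to 62.1 nt in these libraries. Their TPM levels are therefore sensitive to the fragment length of a library, and normalised CPM is given beside them.

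PP7435_Chr2-1968.t01 gained the most TPM. It is 195 nt long and lies on chromosome 2. It stood at 1317, 990, 1241 and 1340 CPM in the 4 libraries at 0% oxygen, against 64.9, 40.4, 60.7 and 34.0 CPM in the 4 at 30% oxygen. The lowest library at 0% oxygen was thus far above the highest at 30% oxygen. Its log2 fold change was 4.61 ± 0.27 (SE), with an adjusted p of 8.28e-11 in edgeR. In TPM it averaged 18452 ± 2723 at 0% oxygen and 817 ± 217 at 30% oxygen (SD, n = 4 each).

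PP7435_Chr2-0423.t01, also on chromosome 2 and 216 nt long, was next. It held 1381, 1354, 1688 and 1454 CPM at 0% oxygen, against 77.5, 55.7, 62.7 and 45.2 CPM at 30% oxygen, and the groups again lay far apart. Its log2 fold change was 4.61 ± 0.24 (SE; adjusted p 2.34e-11 in edgeR). Mean TPM was 17670 ± 1455 at 0% oxygen and 782 ± 121 at 30% oxygen (SD, n = 4 each).

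PP7435_Chr1-3512.t01, on chromosome 1 and 123 nt long, lost the most TPM. It had 2.32, 2.79, 2.43 and 3.94 CPM at 0% oxygen, from 85 to 129 estimated counts a library. At 30% oxygen it had 1438, 1674, 1368 and 1373 CPM, from 50938 to 65727 estimated counts. In TPM it averaged 76.1 ± 6.88 at 0% oxygen and 46227 ± 3064 at 30% oxygen (SD, n = 4 each). Its log2 fold change was -9.00 ± 0.21 (SE; adjusted p 7.61e-16 in edgeR).

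PP7435_Chr2-2397.t01, on chromosome 2 and 204 nt long, was next by loss of TPM. It held 20.7, 19.1, 24.1 and 20.1 CPM at 0% oxygen, against 374, 507, 453 and 444 CPM at 30% oxygen. Replicate 1 was the lowest of the 30% libraries and still stood above every library at 0% oxygen. The log2 fold change was -4.40 ± 0.20 (SE; adjusted p 2.53e-12 in edgeR), and TPM averaged 287 ± 27.3 at 0% oxygen and 6707 ± 1431 at 30% oxygen (SD, n = 4 each). Without replicate 1 at 30% oxygen, the log2 fold changes of the 4 features, in the order given, were 4.75, 4.74, -9.02 and -4.49.

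These 4 features were then followed at the later points of 0% oxygen, with the difference from 0.4 VC tested in the same fit. Against 0.4 VC, 34.8% of all features were called at 4 VC and 28.7% at 5 VC. The rise of PP7435_Chr2-0423.t01 shrank, to 571 ± 142 CPM at 4 VC and 608 ± 172 CPM at 5 VC (SD, n = 4), with log2 changes from 0.4 VC of -1.36 ± 0.21 and -1.27 ± 0.21 (SE) and adjusted p of 6.91e-05 and 0.000173 in edgeR. PP7435_Chr2-1968.t01 had 805 ± 229 CPM at 4 VC and 676 ± 189 CPM at 5 VC (SD, n = 4), log2 changes of -0.60 ± 0.23 and -0.85 ± 0.23 (SE) with adjusted p of 0.0495 and 0.00921 in edgeR. The first of these calls was lost without any 1 of replicates 1, 3 and 4 at 0.4 VC or 2, 3 and 4 at 4 VC, with adjusted p of 0.0891 to 0.118 in edgeR.

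The falls were kept or deepened. PP7435_Chr1-3512.t01 had 1.45 ± 0.356 CPM at 4 VC and 2.49 ± 0.397 CPM at 5 VC (SD, n = 4). It was lower than at 0.4 VC at 4 VC, by a log2 change of -0.96 ± 0.19 (SE; adjusted p 0.00067 in edgeR). The call was not made at 5 VC, with a log2 change of -0.21 ± 0.18 (SE; adjusted p 0.405 in edgeR). PP7435_Chr2-2397.t01 had 13.9 ± 3.44 CPM at 4 VC and 15.3 ± 4.68 CPM at 5 VC (SD, n = 4), with log2 changes of -0.60 ± 0.18 and -0.47 ± 0.18 (SE) and adjusted p of 0.0143 and 0.0553 in edgeR. Single libraries decided those calls: the adjusted p of edgeR was 0.0509 without replicate 4 at 4 VC, and 0.00315 without replicate 2 at 5 VC.

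**Figure D2:**
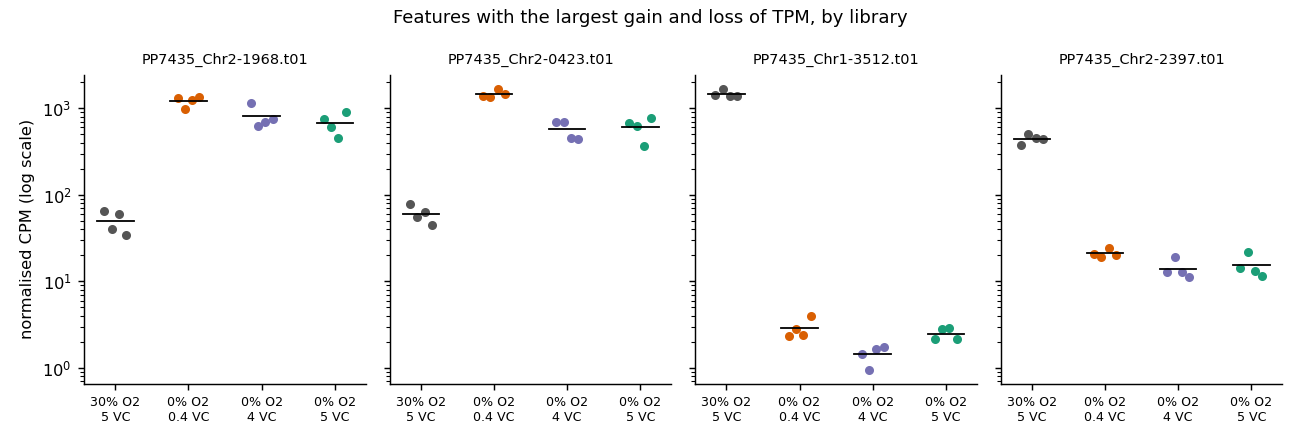
Points are the normalised CPM (log scale) of the 4 named features in each of 4 libraries per group, in the order of sampling, and horizontal lines are group means. PP7435_Chr1-3512.t01 lies between 2.32 and 3.94 CPM at 0% oxygen and 0.4 VC and between 1368 and 1674 CPM at 30% oxygen.

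A few features carried much of the shift in reads. Called features were ranked by difference in mean normalised CPM, a ranking chosen after the data were examined, and are described without identifiers. The 20 largest gains added up to 124444 CPM at 0% oxygen and 35817 CPM at 30% oxygen, and made 35.3% of all gains in CPM. The 20 largest losses added up to 12325 CPM at 0% oxygen and 60743 CPM at 30% oxygen, or 29.9% of all losses. In both sets 18 of the 20 had changed at least 2-fold, where 11.1% of all tested features were called with such a change. The groups of all 20 did not overlap, where those of 48.3% of all tested features did not. Ranking called features by their difference favours both traits, so these counts describe the sets and test nothing.

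The largest gain belonged to a coding feature of 1023 nt on chromosome 4. It held 21738, 22513, 23507 and 23980 CPM at 0% oxygen, against 2981, 3670, 3879 and 4019 CPM at 30% oxygen, a log2 fold change of 2.66 ± 0.19 (SE). That feature alone made 7.69% of all gains, and the first 5 together 21.9%. The second, of 1038 nt on chromosome 3, averaged 17747 ± 1609 CPM at 0% oxygen and 6533 ± 1350 CPM at 30% oxygen (SD, n = 4 each), so it was already abundant before the switch. The third, of 1614 nt on chromosome 1, averaged 12351 ± 412 CPM at 0% oxygen and 3001 ± 677 CPM at 30% oxygen (SD, n = 4 each). The 5 largest gains were of coding features of 1023 to 1683 nt, and 3 of the 5 lay on chromosome 3.

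The largest loss was that of a coding feature of 2133 nt on chromosome 1. It held 550, 451, 565 and 570 CPM at 0% oxygen, against 6363, 8502, 7773 and 6035 CPM at 30% oxygen, a log2 fold change of -3.75 ± 0.18 (SE). The second, of 1764 nt on chromosome 3, stayed abundant, with 3268 ± 410 CPM at 0% oxygen and 8818 ± 572 CPM at 30% oxygen (SD, n = 4 each). The third and the fourth fell much further: a feature of 1626 nt on chromosome 1 had 92.3 ± 9.82 CPM at 0% oxygen and 4465 ± 334 CPM at 30% oxygen, and one of 1659 nt on chromosome 3 had 152 ± 7.83 CPM at 0% oxygen and 3674 ± 175 CPM at 30% oxygen (SD, n = 4 each). The first 5 losses made 14.2% of all losses.

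By size of change, the 59 features that rose at least 4-fold made up 8.11 ± 0.0851% of each library's counts at 0% oxygen and 1.49 ± 0.112% at 30% oxygen (SD, n = 4 each). The 186 that rose 2- to 4-fold made up 10.6 ± 0.165% at 0% oxygen and 4.29 ± 0.172% at 30% oxygen. The 114 that fell at least 4-fold held 0.664 ± 0.0235% at 0% oxygen and 7.44 ± 0.198% at 30% oxygen, and the 244 that fell 2- to 4-fold held 2.09 ± 0.0454% at 0% oxygen and 5.83 ± 0.105% at 30% oxygen. These sets were chosen on the same libraries, so the shares describe them and test nothing. The 2846 features not called held 46.8 ± 0.161% at 0% oxygen and 48.3 ± 0.142% at 30% oxygen.

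Levels in these sets are partly fixed by the choice of a large change. The 114 with falls of at least 4-fold had a median level of 17.2 TPM at 0% oxygen and 203 TPM at 30% oxygen, where the median of all tested features was 43.4 TPM at 0% oxygen and 49.6 TPM at 30% oxygen. The 59 with rises of at least 4-fold had a median of 220 TPM at 0% oxygen and 50.7 TPM at 30% oxygen, the second value close to the median of all features. No feature passed from under 1 CPM to at least 10 CPM or the reverse, counts of 0 in each direction among features tested.

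The same sets were read at the later points, which are compared with the same 30% libraries. For the 59 rising features, the median normalised CPM per library was 50.9 to 60.7 at 30% oxygen, 332 to 410 at 0.4 VC, 189 to 214 at 4 VC and 181 to 216 at 5 VC of 0% oxygen. Every later library thus lay below every library at 0.4 VC and above every one at 30% oxygen. For the 114 falling features it was 247 to 290 at 30% oxygen, 28.7 to 32.8 at 0.4 VC, 29.4 to 37.4 at 4 VC and 27.9 to 34.5 at 5 VC, and the 3 groups at 0% oxygen overlapped. The rising and falling sets were picked at 0.4 VC, so their values there are the ones most favoured by the choice.

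**Figure D3:**
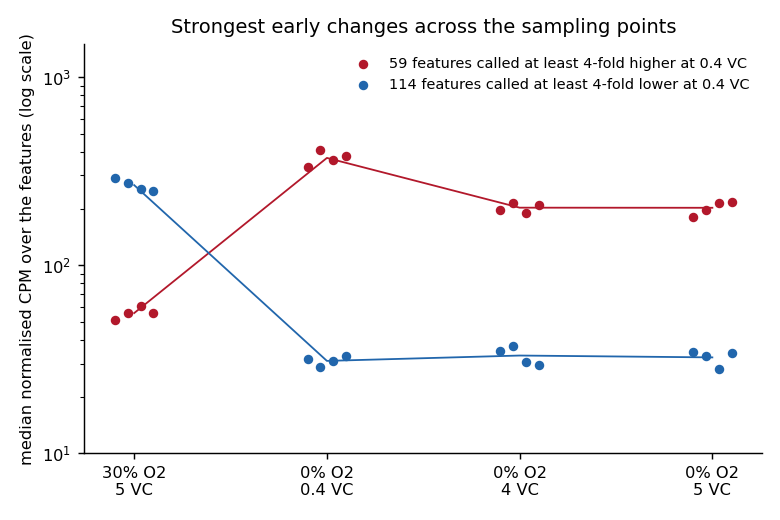
Points are the median normalised CPM (log scale) in each library of the 59 features called at least 4-fold higher (red) and of the 114 called at least 4-fold lower (blue) at 0.4 VC, in the order of sampling, and lines join group means. The rising set stands at 332 to 410 CPM at 0.4 VC and at 181 to 216 CPM in the later libraries, and the falling set stays between 27.9 and 37.4 CPM at every point of 0% oxygen.

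How direction related to level depended on which libraries set the level. The 5353 nuclear coding features tested, of which 23.9% rose and 24.3% fell, were split into quartiles of mean TPM. With the level taken at 0% oxygen and 0.4 VC, 9.04% of the lowest quartile and 38.8% of the highest rose, and 36.5% of the lowest and 13.7% of the highest fell. With the level taken at 30% oxygen, 23.1% of the lowest quartile and 24.4% of the highest rose, and 18.1% of the lowest and 28.7% of the highest fell. A feature's own rise lifts its level at 0% oxygen, and its own fall lowers it, so each of these splits partly follows from the change itself, in opposite senses. With the geometric mean of both group means as the level, 16.1% of the lowest quartile and 31.2% of the highest rose, and 26.5% of the lowest and 20.4% of the highest fell. The falls thus ran in opposite directions over the quartiles under different splits, and the shares describe the splits and test nothing.

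The share of features called also varied with coding length. It was 34.3% of 251 features of up to 300 nt, 38.1% of 751 of up to 600 nt, 48.9% of 1769 of up to 1200 nt, 54.9% of 1930 of up to 2400 nt and 43.7% of 652 longer ones. The standard error moved with length as well: its median was 0.21 on the log2 scale in the shortest class and 0.09 in the longest, and its part in the shares was not tested. The median absolute value of the estimated log2 fold changes was smallest in the longest class, 0.19, against 0.38 in the shortest. Estimates with a larger standard error scatter more widely, and the part of this in the medians was not tested either. By chromosome, 45.1% to 50.5% of nuclear coding features were called. On chromosome 1, 438 of 1656 features fell (26.4%) and 377 rose (22.8%). On chromosome 2, 330 of 1358 rose (24.3%) and 283 fell (20.8%). These shares were near those of all nuclear coding features, of which 24.3% fell and 23.9% rose. With upper-quartile factors, 405 features fell and 396 rose on chromosome 1. On log2(TPM + 1) in limma, falls outnumbered rises on every nuclear chromosome, with 175 rises and 361 falls on chromosome 2.

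**Figure D4:**
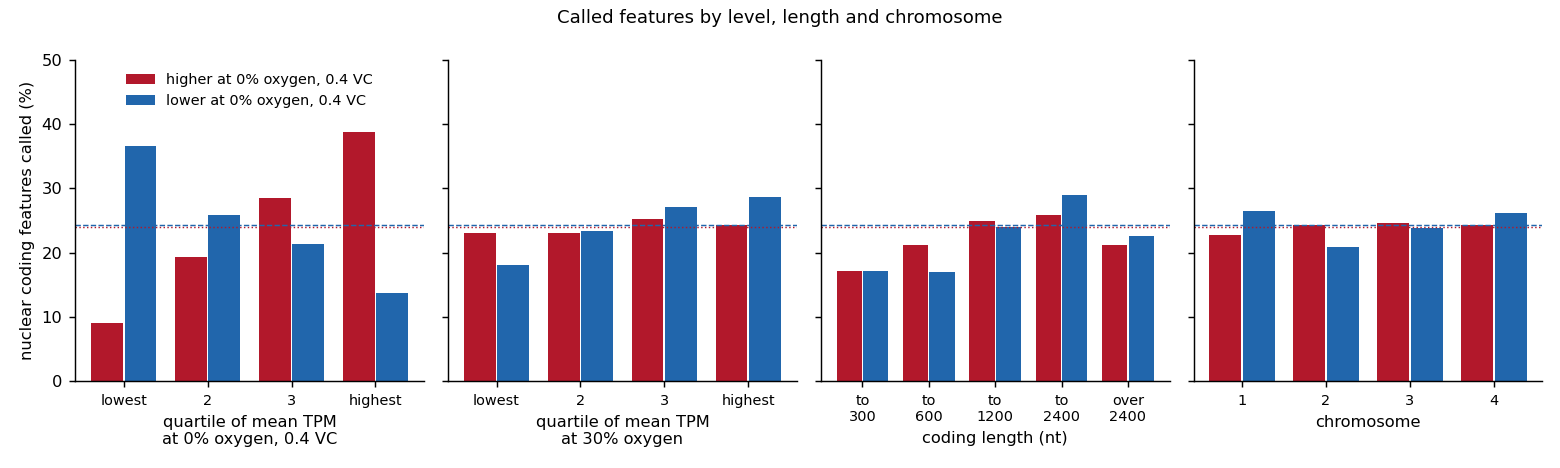
Bars give the percentage of nuclear coding features called higher (red) or lower (blue) at 0% oxygen and 0.4 VC, by quartile of mean TPM at 0% oxygen and 0.4 VC, by quartile of mean TPM at 30% oxygen, by coding length and by chromosome; the dotted and dashed lines are the shares over all nuclear coding features, 23.9% higher and 24.3% lower. Falls go down from 36.5% to 13.7% over the quartiles set at 0% oxygen and up from 18.1% to 28.7% over those set at 30% oxygen.

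The share of neighbours that changed the same way was above the share of all features. Position was read from the identifiers, taking coding features with consecutive numbers on a chromosome as neighbours, which gave 4563 pairs. In the deposited order of features some numbers stand out of sequence, so features with consecutive numbers need not be adjacent. Among neighbours of features called at least 2-fold lower, 19.8% were themselves called at least 2-fold lower, where 6.56% of all nuclear coding features were. Among neighbours of features called at least 2-fold higher, 12.1% had risen likewise, where 4.33% of all had. Both members had fallen in 58 pairs and both had risen in 23. With neighbours taken from the deposited order instead, these counts were 72 and 30 of 5349 pairs. Neighbours that went the other way by at least 2-fold made 3.92% beside falling features and 6.04% beside rising ones. These shares are a description and were not tested. Without replicate 1 at 30% oxygen they were 22.2% beside falling features and 10.5% beside rising ones.

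Stretches of 3 or more features with consecutive numbers that all fell at least 2-fold numbered 12 and held 38 features, and 0 such stretches rose. They lay on chromosomes 1, 3 and 4. The stretch with the deepest fall held 4 coding features on chromosome 3. Its first member, 2667 nt long, had 16.4 ± 1.80 CPM at 0% oxygen and 1733 ± 118 CPM at 30% oxygen (SD, n = 4 each), and the other 3 had log2 fold changes of -2.02, -1.46 and -1.84. The other stretch of 4, on chromosome 1, held the feature with the largest loss of CPM, and its neighbours of 3015, 534 and 1155 nt had log2 fold changes of -1.04, -3.29 and -1.43.

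On chromosome 4, a stretch of 3 fell by log2 changes of -4.08 ± 0.18, -3.23 ± 0.17 and -2.22 ± 0.14 (SE), with 41.4, 12.3 and 17.4 CPM at 0% oxygen against 700.0, 115 and 81.2 CPM at 30% oxygen. Members of a stretch could differ widely in level and in size of change. On chromosome 3, a stretch held a feature of 516 nt with 5.99 CPM at 0% oxygen and 17.4 CPM at 30% oxygen, one of 900 nt with 66.8 CPM at 0% oxygen and 343.8 CPM at 30% oxygen, and one of 1839 nt with 26.0 CPM at 0% oxygen and 387.8 CPM at 30% oxygen. The strand setting of the counting is not given in the sources used here, so reads shared by overlapping neighbours cannot be told apart from reads of their own.

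**Figure D5:**
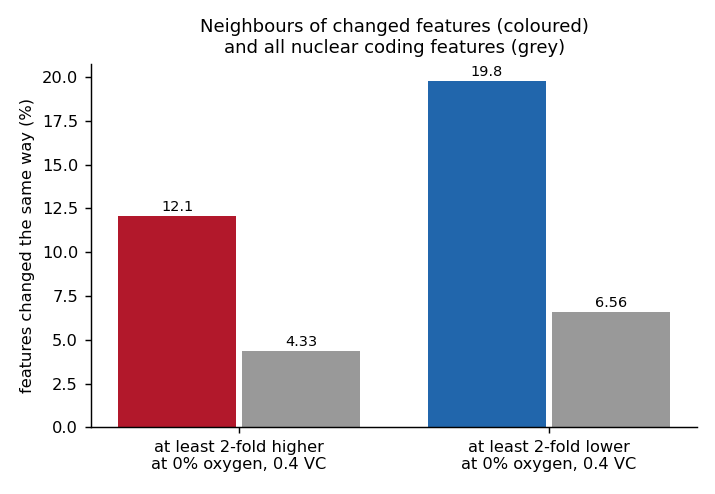
Coloured bars give the percentage of neighbours, by consecutive identifier number, that were called at least 2-fold in the same direction as a feature called at least 2-fold higher (red) or lower (blue) at 0% oxygen and 0.4 VC; grey bars give the same percentage over all nuclear coding features. The values are 12.1% beside 4.33% for rises and 19.8% beside 6.56% for falls.

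Mitochondrial features, taken as those whose identifier contains Mit, mostly lay on the rising side. Of 39 tested, 13 rose and 1 fell, or 35.9% called, against 47.8% of all features. The 15 coding ones had a median log2 fold change of 0.51 and 4 of them rose (26.7%). Of the 24 r features 9 rose (37.5%) and 1 fell (4.17%). Among all features tested, 23.8% rose and 24.0% fell. The median standard error was 0.27 on the log2 scale for the mitochondrial coding features and 0.54 for the mitochondrial r features, against 0.12 over all features. Smaller changes were thus harder to call among them. The call count rested on single libraries: 8 were called without replicate 3 at 30% oxygen and 9 without replicate 2 at 0.4 VC, against 14 with all libraries. Outside the mitochondrial chromosome, 3 of 60 tested r features rose and 7 fell, or 16.7% called, against 47.8% of all features. The median standard error of these r features was 0.56 on the log2 scale, so changes under 2-fold could hardly be called among them, and all 10 were at least 2-fold.

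Measures of whole libraries were compared over 4 libraries against 4. The 50 nuclear coding features with the highest mean TPM over all 16 libraries were taken as a set. They held 35.3%, 35.2%, 36.2% and 35.6% of coding TPM at 0% oxygen, against 33.5%, 31.6%, 31.8% and 32.2% at 30% oxygen. The groups did not overlap, and a two-sided exact permutation test gave p = 0.0286, the smallest that 4 libraries against 4 allow, or 0.143 after adjustment over 5 measures, so the difference failed the correction. The difference in this share, 3.30 percentage points on TPM, was 6.0 points on shares of counts and 3.72 points without replicate 1 at 30% oxygen. On counts the 50 were likewise picked over all 16 libraries. Only 4 of the 16 were at 30% oxygen, and the libraries compared were among the 16. The choice thus favours features high at 0% oxygen, and its part in the difference was not tested. The effective number of coding features, a count of equally abundant transcripts that would give the same diversity, was 857 ± 22.2 at 0% oxygen and 933 ± 68.0 at 30% oxygen (SD, n = 4 each; exact permutation p = 0.143, adjusted 0.238). The mean difference was -75.6, and without replicate 1 at 30% oxygen, the lowest of its group, it was -109 (exact permutation p = 0.0286, unadjusted). On shares of counts in place of TPM it was -397 (exact permutation p = 0.0286, unadjusted), so the size of this difference depended on the unit. Neither of these p-values was adjusted over the 5 measures, a correction that the same p failed for the share of the 50 features. Features with at least 10 counts numbered 5400 to 5429 at 0% oxygen and 5410 to 5447 at 30% oxygen, and the ranges overlapped (exact permutation p = 0.486 before and after adjustment). Without replicate 1 at 30% oxygen the mean difference of -8.25 features was -0.5. Coding features of the mitochondrial chromosome made up 2.75 ± 0.501% of all counts at 0% oxygen and 2.11 ± 0.518% at 30% oxygen (SD, n = 4 each; exact permutation p = 0.114, adjusted 0.238); without replicate 1 at 30% oxygen the difference of 0.639 percentage points was 0.628. The r features outside the mitochondrial chromosome took 0.0182 ± 0.00456% at 0% oxygen and 0.0208 ± 0.00485% at 30% oxygen (SD, n = 4 each; exact permutation p = 0.457, adjusted 0.486). The difference of -0.00254 percentage points was -0.00012 without replicate 1 at 30% oxygen.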

How the data were processed

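RNA was ribosome-depleted and made into directional libraries, per the labels' protocols. Tools named, without their roles, in the submitters' processing notes were kallisto 0.44.0, DESeq2 1.36.0, SAMtools 1.9, R 4.2.0, Bowtie2 2.3.4.1 and cutadapt 1.18. Genome build, annotation and strand setting: not given in the sources used here. The deposited tables hold, per the file headers, for every feature its estimated count (not normalised), the authors' TPM (transcripts scaled to a common total from estimated count and effective length) and its full and effective length in nt.

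Estimated counts were rounded and fitted with edgeR 4.0.16 in R 4.3.3: filterByExpr (112 features removed), TMM factors, 1 mean per group over all 16 libraries, quasi-likelihood tests, and Benjamini-Hochberg adjustment over all 5452 tested features. Calls used an adjusted p under 0.05, and glmTreat tested changes beyond 2-fold. Standard errors came from the F statistic. CPM values are TMM-normalised. The 4 printed identifiers are the called nuclear coding features, with groups that do not overlap, of largest gain and loss of mean TPM (2 each). Gene lists by symbol could not be matched and were not tested. The edgeR p-values set a group difference against the spread between replicates, estimated from all 16 libraries. The exact permutation tests used only the 8 libraries compared, or fewer where 1 was left out. Members, lists and rules were chosen with earlier results of these data known. Scripts were tested on simulated data. Alternatives were DESeq2 1.42.0, limma 3.58.1 on log2(TPM + 1) and log2(TPM + 0.1), upper-quartile or RLE factors, other filters, only the 8 libraries, a replicate block and leaving out each library; neighbour, level and later-point alternatives were added after the data were examined.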

Additional observations from a re-analysis of the deposited data

Results flagged for a closer look

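Of 18 sets of 4 libraries examined for a library far from the other 3, 2 held one, where chance gives about 0.9. Both were replicate 1 at 30% oxygen: its effective number of coding features was 832, against 952 to 976 in the other 3, and its r features outside the mitochondrial chromosome took 0.028% of counts, against 0.0178% to 0.0187%. It was also the library with the shortest fragments, and the part of fragment length in these values was not tested.

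The named features that differed between 0.4 VC and a later point of 0% oxygen in edgeR's test were as follows. At 4 VC the log2 changes from 0.4 VC were -0.60 for PP7435_Chr2-1968.t01, -1.36 for PP7435_Chr2-0423.t01, -0.96 for PP7435_Chr1-3512.t01 and -0.60 for PP7435_Chr2-2397.t01. At 5 VC they were -0.85 for PP7435_Chr2-1968.t01 and -1.27 for PP7435_Chr2-0423.t01.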

How the results depend on the processing

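Over the alternatives run, 401 values kept their direction and side of the threshold or stayed within 1.5 times the main value, 15 fell below and 4 rose above a threshold or that range, 4 others moved and 1 changed sign. The value that changed sign was the share of falls in the highest minus the lowest level quartile: -9.32 percentage points with the level over all 16 libraries, 10.6 with the level at 30% oxygen, -22.8 with that at 0.4 VC and -6.11 with the geometric mean of both. For rises the values under these 4 splits were 19.1, 1.29, 29.8 and 15.2. On log2(TPM + 1) and log2(TPM + 0.1) in limma, without TMM factors, rising features numbered 747 and 746 in place of 1296. Mitochondrial features called there numbered 9 and 8 in place of 14. Leaving out 1 library at a time gave 8 to 20 mitochondrial features called and 2343 to 2472 features called in all. The difference in the effective number of coding features, -75.6, was -397 on shares of counts (exact permutation p = 0.0286, unadjusted). With 1 library left out it was -109 to -61.3, with an unadjusted p = 0.0286 in the exact test without replicate 1 at 30% oxygen. DESeq2 called 2716 features, and a fit of only the 8 libraries 2923. The causes were not tested. Consecutive rows of the tables in place of consecutive numbers gave 20.5% and 13.0% changed neighbours beside falling and rising features. Replicate numbers were not taken as pairs. Same-numbered libraries correlated in their deviations at -0.20 to 0.21 over 4 pairs, which cannot settle whether they shared a vessel. With the replicate block 2554 features were called, and PP7435_Chr2-2397.t01 was then called between 5 VC and 0.4 VC (adjusted p 0.0177 in edgeR). The PP7435_Chr2-1968.t01 call at 4 VC was lost with RLE and upper-quartile factors (adjusted p 0.0523 and 0.0693 in edgeR).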
